A study of Mus musculus with 8 samples.

Results

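The RNA levels of 10 genes used as markers of vascular smooth muscle cells and pericytes were examined in left ventricles of mice with and without cardiac Lin28a after pressure overload. They are taken as a list of names: Myh11, Smtn, Cnn1, Tagln, Mylk and Cnn2 of the smooth muscle contractile apparatus, and Pdgfrb, Notch3, Cspg4 and Rgs5 of mural cells, the smooth muscle cells and pericytes that wrap blood vessels. All 10 were present among the 13439 genes listed, and all 10 passed the filter on low values (at least 1 CPM in at least 2 libraries) that left 13120 genes for testing. CPM, the unit of the deposited table, is a gene's reads scaled to a common library total of 1e6 reads.

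The 8 libraries form 4 groups of 2: Lin28afl/fl littermates (floxed, with loxP sites around an intact gene) and Lin28aCko mice (cKO, cardiac-specific knockout), each after sham surgery or after transverse aortic constriction (TAC), in which a constriction of the aorta makes the left ventricle pump against higher pressure. Hearts were collected at day 5 after TAC. The sources used here give no Cre line, no strain, sex or age of the mice and no day of collection of sham hearts. Nor do they state that the 2 libraries of a group came from 2 animals. Sex-linked transcripts differed between the 2 cKO sham libraries (below), so those came from different animals. Each p-value reflects the spread between libraries, which in the other groups may not be a spread between animals. Lin28a transcripts were not analysed here, and the genotypes rest on the labels.

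Smooth muscle cells contract when calcium activates myosin light chain kinase (Mylk), which lets smooth muscle myosin (Myh11) pull on actin, while calponins (Cnn1, Cnn2), transgelin (Tagln) and smoothelin (Smtn) bind the actin filaments. Myocardin and its relatives switch these genes on through serum response factor, which binds a DNA element called the CArG box. Pericytes sit on capillaries, are recruited by endothelial PDGF-B acting on the receptor Pdgfrb, and are marked in the heart by Rgs5, a regulator that shortens G protein signals, and by the proteoglycan NG2 (Cspg4). Several of the contractile genes are also made by fibroblasts that have become activated, so none of them identifies a cell type on its own in whole tissue.

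Library totals ranged from 10315902 to 21871570 reads, and the members had between 11 and 4551 reads in a library. The ventricular myosin light chain gene Myl2 was at 2977 CPM or more in every library. The atrial light chain Myl7 was at 65.0 to 133 CPM in floxed sham 2, cKO sham 2 and cKO TAC 2 and at 0.511 to 6.16 CPM in the other 5 libraries. Library cKO sham 2 had Xist at 44.3 CPM and Ddx3y at 0, where the other 7 had Xist at no more than 0.173 CPM and Ddx3y at 32.3 CPM or more. Xist is made in female cells and Ddx3y lies on the Y chromosome, so cKO sham 2 reads as female and the other 7 as male. Sex is therefore unbalanced in the comparisons that use cKO sham, and its part in them was not tested. Across all genes tested, limma called 3655 higher and 1907 lower for TAC against sham in floxed hearts, 1101 higher and 2162 lower for cKO against floxed in TAC hearts, and 647 higher and 1204 lower for the interaction. Under RLE scaling, which equalises the median gene between libraries, these splits became 2985 and 2595, 1421 and 1752, and 846 and 917. The median gene moved from log2 0.14 to 0.00 in floxed hearts under that scaling.

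The members differed widely in level when CPM was divided by exon length (GENCODE M21 gene models of GRCm38). In floxed sham hearts Rgs5 was highest at 52.3 CPM per kb, followed by Pdgfrb (24.3), Cnn2 (21.4), Smtn (20.9), Tagln (15.1), Notch3 (10.02), Myh11 (4.73), Cspg4 (4.09), Mylk (2.79) and Cnn1 (0.476 CPM per kb). The neighbours Cnn2 and Smtn, and Myh11 and Cspg4, overlapped between libraries in that order, and the other neighbours did not. In floxed TAC hearts the order was different at the top, with Tagln at 83.8 and Cnn2 at 69.6 CPM per kb above Rgs5 at 38.3 and Pdgfrb at 33.1. Rgs5 and Pdgfrb overlapped there, as did Cnn1 with Notch3 and Myh11 with Mylk. In cKO sham hearts Rgs5 (61.5 CPM per kb) again led Pdgfrb (28.7) and Cnn2 (25.7), and Cnn1 (1.28) was lowest. In cKO TAC hearts the leading 4 genes, Rgs5 (44.1), Tagln (35.7), Cnn2 (33.6) and Pdgfrb (21.7 CPM per kb), followed by Smtn, each overlapped with their neighbour.

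**Figure D1:**
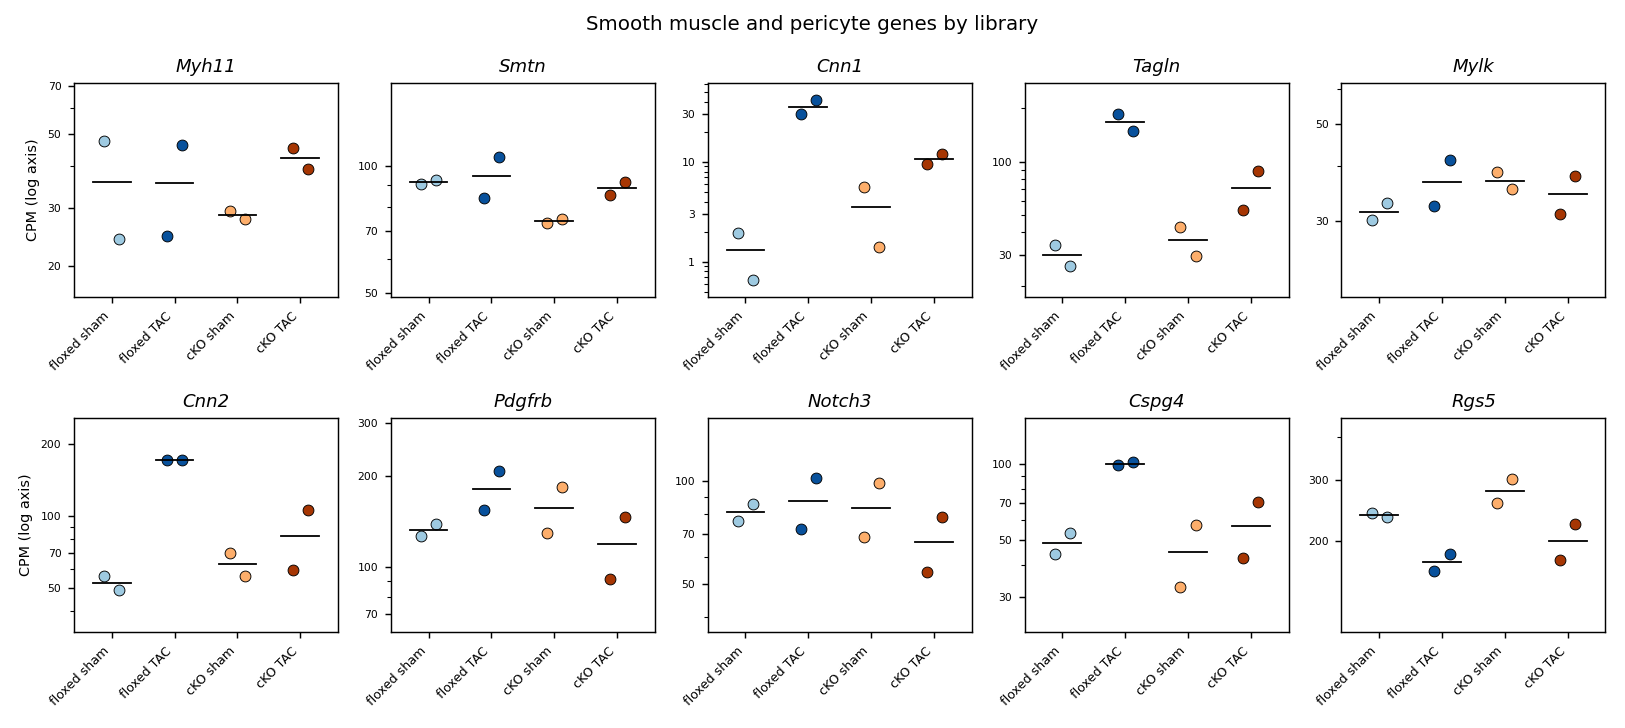
Per-library levels of the 10 genes, plotted as CPM (log axis, scaled per panel); each point is a library and each horizontal bar a group mean, n = 2. Cnn1, Tagln, Cnn2 and Cspg4 stood highest in both floxed TAC libraries, whereas Myh11 spread from 24.1 to 47.7 CPM within floxed sham hearts alone.

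TAC against sham in floxed hearts shows how the genes respond to pressure overload while Lin28a is intact. Of the 10 genes 4 rose (Cnn1, Tagln, Cnn2 and Cspg4), 1 fell (Rgs5) and 5 did not pass the threshold, a Benjamini-Hochberg adjusted p under 0.05 by limma over all genes. Among all genes 42.4% passed in this comparison, 27.9% higher and 14.5% lower, so the share of members called was close to that of genes in general. The median difference was log2 0.32 over the 10 members and 0.14 over all genes, and the 3 contractile genes that rose did so by log2 1.69 to 4.04. Differences are given on the log2(CPM + 1) scale with the standard error of the fit, a scale that understates changes of low genes.

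Cnn1 (chromosome 9, 22099216 to 22109630) encodes calponin 1, an actin-binding protein of differentiated smooth muscle. It was at 1.95 and 0.660 CPM in floxed sham libraries and at 30.0 and 41.5 CPM in floxed TAC libraries. The groups did not overlap, and the ratio of their means was 27.4. On the log2 scale the difference was 4.04 ± 0.44 (adjusted p = 0.000125), the largest among the members. The lowest of these values rests on 11 reads, so the sham level is known only roughly.

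Tagln (chromosome 9, 45929619 to 45936058) encodes transgelin, also called SM22, which bundles actin filaments. Its floxed sham libraries were at 33.9 and 26.0 CPM and its floxed TAC libraries at 185 and 149 CPM. All TAC values lay above all sham values, with means of 30.0 ± 5.53 and 167 ± 25.4 CPM (SD, n = 2) and a difference of log2 2.44 ± 0.25 (adjusted p = 9.56e-05). The gene overlaps exons of Pcsk7 on the opposite strand, and whether reads were counted by strand is not stated. Pcsk7 itself stayed between 24.3 and 26.9 CPM in all 8 libraries.

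Cnn2 (chromosome 10, 79988584 to 79996062) encodes calponin 2, which is found in non-muscle cells as well as in smooth muscle. It was at 56.0 and 49.2 CPM in floxed sham hearts and at 172 and 171 CPM in floxed TAC hearts. Both TAC libraries were about equal and more than 3 times the sham level (ratio of means 3.26), with log2 1.69 ± 0.23 (adjusted p = 0.000345). The third calponin gene, Cnn3, which was not one of the 10, went from 49.7 and 56.5 CPM to 136 and 139 CPM (log2 1.36 ± 0.13, adjusted p = 5.25e-05), so all 3 calponin genes rose in floxed hearts.

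The stretches of DNA just upstream of the 3 calponin genes are shown because these genes rose together. They come from RefSeq promoter windows of GRCm38.p6 (250 bases before the start site to 50 after it), ended before the first base of the GENCODE gene model, 5′ to 3′ on the plus strand. Capitals mark a CArG box, taken as an exact match to CCWWWWWWGG, where W is A or T. Sites with a mismatch were not searched for.
Cnn2 (chr10:79988350-79988583): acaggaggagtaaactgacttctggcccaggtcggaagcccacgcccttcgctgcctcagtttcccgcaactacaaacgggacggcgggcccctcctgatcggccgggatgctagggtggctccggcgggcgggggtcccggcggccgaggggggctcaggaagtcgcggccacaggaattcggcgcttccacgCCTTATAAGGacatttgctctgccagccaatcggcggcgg
Cnn1 (chr9:22099003-22099215): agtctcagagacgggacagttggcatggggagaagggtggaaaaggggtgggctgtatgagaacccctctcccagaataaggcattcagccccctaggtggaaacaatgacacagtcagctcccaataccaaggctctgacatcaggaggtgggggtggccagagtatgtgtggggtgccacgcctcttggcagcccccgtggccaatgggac
Cnn3 (chr3:121426291-121426496): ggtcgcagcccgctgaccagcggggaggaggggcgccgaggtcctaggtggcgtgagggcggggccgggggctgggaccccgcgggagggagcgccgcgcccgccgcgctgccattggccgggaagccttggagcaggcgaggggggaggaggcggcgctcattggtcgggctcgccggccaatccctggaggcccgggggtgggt
The CArG box of Cnn2 lies at positions -56 to -47 from the RefSeq start site. Windows were found for 7 of the 10 members (Smtn, Cnn1, Mylk, Cnn2, Notch3, Cspg4 and Rgs5), while Myh11, Tagln and Pdgfrb had none. Cnn2 was the only one of the 7 with an exact CArG box on either strand. Of all 32851 promoter windows 1.63% held one. The motif TGGGAA, bound by the Notch effector Rbpj, was present on either strand in the window of Smtn and in 25.6% of all windows. CATTCC, bound by TEAD factors, was present in those of Smtn and Mylk and in 14.7% of all windows. The windows of Smtn (chr11:3539243-3539542) and Mylk (chr16:34784700-34784999) lie inside their GENCODE gene models, downstream of the outermost start. The window of Cnn2 held neither TGGGAA nor CATTCC, and those of Smtn and Mylk held no exact CArG box. Such matches describe the letters in the windows and nothing about binding.

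The remaining contractile members did not pass in floxed hearts. Myh11 (chromosome 16, 14194535 to 14291372), the gene whose product is most restricted to smooth muscle, was at 47.7 and 24.1 CPM in sham and 24.6 and 46.5 CPM in TAC libraries. Its 2 groups overlapped over nearly their whole range, with log2 -0.00 ± 0.32 and a 95% interval from -0.73 to 0.72. Smtn (chromosome 11, 3517523 to 3540612), encoding smoothelin, a marker of contractile smooth muscle, was at 90.5 and 92.5 CPM in sham and 83.9 and 105 CPM in TAC libraries (log2 0.04 ± 0.12, interval -0.24 to 0.32). Mylk (chromosome 16, 34745210 to 35002420), which overlaps exons of the low antisense gene E130310I04Rik (1.49 to 4.46 CPM), was at 30.0 and 32.8 against 32.3 and 41.4 CPM (log2 0.21 ± 0.16, interval -0.14 to 0.57). The interval for Smtn leaves room for a rise of at most log2 0.32, far from the rises of Tagln and Cnn1, whereas the interval for Myh11 is wide.

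Among the mural cell members Cspg4 and Rgs5 moved in opposite directions in floxed hearts. Cspg4 (chromosome 9, 56865033 to 56899870), the gene of the proteoglycan NG2, went from 44.2 and 53.3 to 99.5 and 102 CPM. Its TAC libraries were alike and above both sham libraries (log2 1.04 ± 0.27, adjusted p = 0.0130). Rgs5 (chromosome 1, 169655501 to 169695813) went from 241 and 234 CPM down to 164 and 184 CPM, without overlap (log2 -0.45 ± 0.14, adjusted p = 0.0245). Pdgfrb, the PDGF-B receptor, was at 127 and 140 CPM in sham and 155 and 208 CPM in TAC libraries, higher in both TAC libraries but short of the threshold (log2 0.43 ± 0.24, adjusted p = 0.172). Notch3 (chromosome 17, 32120820 to 32166852), a Notch receptor of arterial smooth muscle, was at 76.2 and 85.9 CPM in sham and 72.6 and 102 CPM in TAC libraries, which overlapped (log2 0.09 ± 0.23, adjusted p = 0.786).

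Without overlap between groups, 5 members were higher and 1 lower in floxed TAC than in floxed sham hearts, where 46.7% and 28.9% of all genes were. The rises of Cnn1, Tagln and Cnn2 passed under all 20 alternatives run. Cspg4 missed the threshold without floxed sham 1 (adjusted p = 0.0923), floxed TAC 1 (0.0600) or floxed TAC 2 (0.0676), and Rgs5 missed it without floxed sham 1 (0.124), floxed sham 2 (0.0908), floxed TAC 1 (0.136) or the 3 libraries with atrial transcripts (0.0543); the count of members called was 3 without floxed sham 1 and 3 without floxed TAC 1, all by limma.

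**Figure D2:**
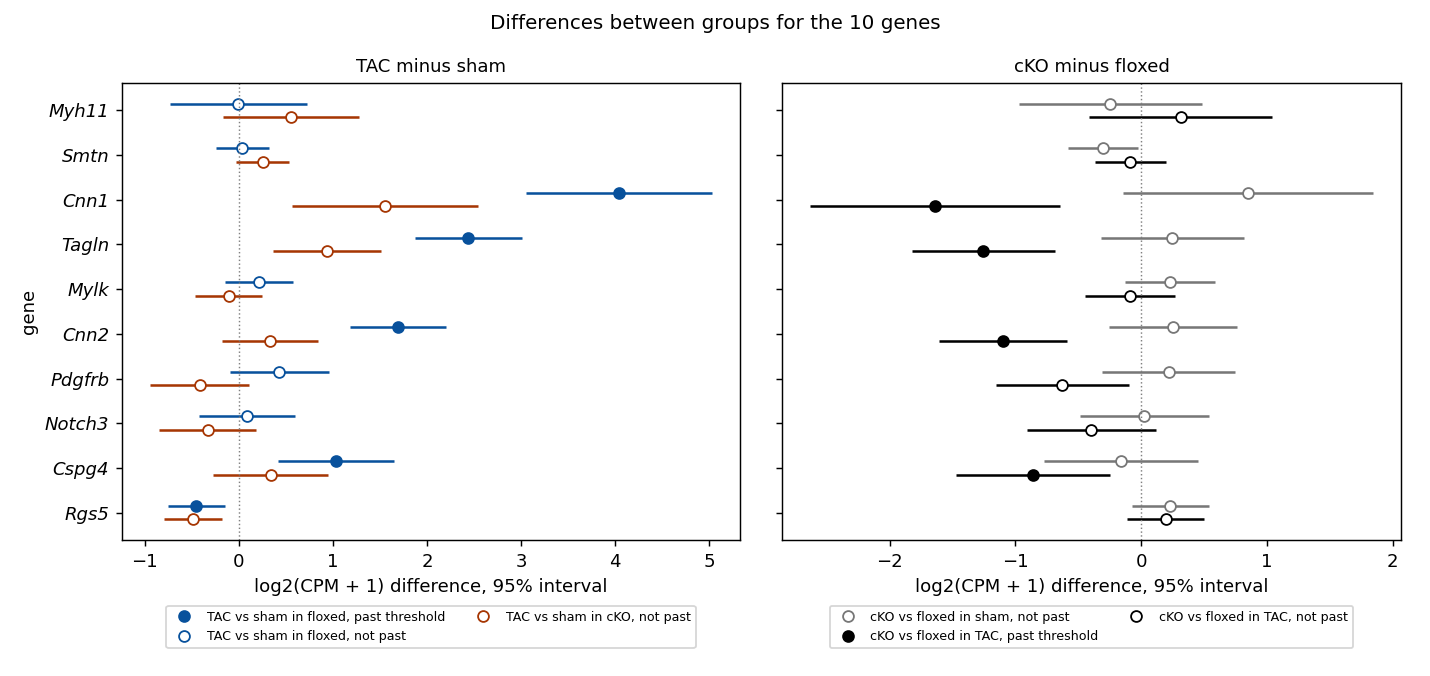
Differences between groups for each of the 10 genes on the log2(CPM + 1) scale, with 95% intervals as horizontal lines, TAC minus sham on the left and cKO minus floxed on the right. Filled points passed the threshold, 5 in floxed hearts after TAC and 4 for cKO against floxed after TAC, and open points did not.

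TAC against sham in cKO hearts gives the response without Lin28a in heart muscle. No member passed the threshold by limma, where 2.53% of all genes did (2.09% higher, 0.442% lower). An unadjusted p under 0.05 by limma was found for 3 members (Cnn1, Tagln and Rgs5) and for 2142 of all 13120 genes. edgeR and limma-voom on recovered reads also called 0 members, with 346 and 129 of all genes called. DESeq2 called 2, Tagln higher (adjusted p = 0.00329) and Rgs5 lower (adjusted p = 0.0170), and 691 of all genes, 527 higher and 164 lower. Cnn1 was at 5.62 and 1.39 CPM in cKO sham and 9.49 and 11.99 CPM in cKO TAC libraries (log2 1.55 ± 0.44, adjusted p = 0.112). The 2 cKO sham libraries differed from each other by more than the 2 cKO TAC libraries did.

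Tagln was at 42.8 and 29.3 CPM in cKO sham and 53.4 and 88.7 CPM in cKO TAC libraries (log2 0.94 ± 0.25, adjusted p = 0.0956). The groups did not overlap, but the 2 TAC libraries lay far apart. Cnn2 was at 70.1 and 56.2 CPM in sham and 59.5 and 106 CPM in TAC libraries, so that cKO TAC 1 fell between the sham values (log2 0.34 ± 0.23, adjusted p = 0.513). Smtn was at 73.2 and 74.9 CPM in sham and 85.3 and 91.6 CPM in TAC libraries (log2 0.25 ± 0.12, adjusted p = 0.354), and Myh11 at 29.3 and 27.8 against 45.6 and 39.4 CPM (log2 0.55 ± 0.32, adjusted p = 0.438). Both of these genes were higher in each TAC library than in each sham library. Mylk overlapped, at 38.7 and 35.4 against 31.0 and 37.9 CPM (log2 -0.11 ± 0.16, adjusted p = 0.803).

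Of the mural cell genes in cKO hearts, Rgs5 went from 257 and 302 CPM in sham to 177 and 224 CPM in TAC libraries, without overlap. Its difference of log2 -0.48 ± 0.14 (adjusted p = 0.109) was about the size of that in floxed hearts, -0.45, where it passed. Pdgfrb was at 130 and 184 CPM in sham and 91.7 and 146 CPM in TAC libraries (log2 -0.42 ± 0.24, adjusted p = 0.422). Notch3 was at 68.4 and 98.8 CPM in sham and 54.2 and 78.4 CPM in TAC libraries (log2 -0.33 ± 0.23, adjusted p = 0.522). Cspg4 was at 32.6 and 57.5 CPM in sham and 42.6 and 70.9 CPM in TAC libraries (log2 0.34 ± 0.27, adjusted p = 0.599). For the last 3 genes the sham and TAC libraries overlapped, and in each of the 4 groups of the study the library with more Pdgfrb also had more Notch3 and more Cspg4.

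Without overlap between groups, 4 members were higher and 1 lower in cKO TAC than in cKO sham hearts, where 23% and 19.9% of all genes were. The calls in cKO hearts moved with single libraries. Cnn1 passed without cKO sham 1 (log2 2.29, adjusted p = 0.0300), and Tagln (adjusted p = 0.0201) and Cnn2 (adjusted p = 0.0332) passed without cKO TAC 1. In cKO TAC 2, 9 of the 10 members were higher than in cKO TAC 1, the exception being Myh11, where 63% of all genes tested were.

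cKO against floxed in sham hearts asks whether the genes differed before pressure overload. No member passed by limma, where 0.0534% of all genes did (0.0457% higher, 0.00762% lower). None passed by edgeR, DESeq2 or limma-voom either, which called 6, 52 and 1 of all genes. Smtn alone among the members had an unadjusted p under 0.05 by limma, as did 1013 of all 13120 genes. Smtn was at 73.2 and 74.9 CPM in cKO against 90.5 and 92.5 CPM in floxed sham libraries (log2 -0.30 ± 0.12, adjusted p = 0.620). Cnn1 had the largest difference (log2 0.85 ± 0.44, adjusted p = 0.697), carried by 1 cKO library at 5.62 CPM. Without overlap between groups, 3 members were higher and 1 lower in cKO sham libraries, where 24.9% and 17.1% of all genes were. The 95% intervals of the other 8 members lay between -0.97 and 0.82, which does not show that the genotypes were alike.

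cKO against floxed in TAC hearts compares the genotypes under pressure overload. Cnn1, Tagln, Cnn2 and Cspg4 were lower in cKO hearts, none was higher and 6 did not pass, where 24.9% of all genes passed, 8.39% higher and 16.5% lower. The members' median was log2 -0.51 against -0.10 for all genes. Tagln stood at 71.1 ± 25.0 CPM in cKO TAC and 167 ± 25.4 CPM in floxed TAC hearts (log2 -1.25 ± 0.25, adjusted p = 0.00796). Cnn2 stood at 82.7 ± 32.8 against 171 ± 0.515 CPM (log2 -1.10 ± 0.23, adjusted p = 0.00860). Cnn1 stood at 10.7 ± 1.77 against 35.8 ± 8.09 CPM (log2 -1.64 ± 0.44, adjusted p = 0.0247) and Cspg4 at 56.8 ± 20.05 against 101 ± 1.52 CPM (log2 -0.86 ± 0.27, adjusted p = 0.0463). For each of these 4 genes both cKO TAC libraries lay below both floxed TAC libraries, as did those of Pdgfrb, which did not pass (log2 -0.63 ± 0.24, adjusted p = 0.0807) but did without cKO TAC 2 (log2 -0.96, 0.0127) and without the 3 libraries with atrial transcripts (log2 -0.96, 0.0173); none was higher without overlap, where 40.2% of all genes were lower and 23.6% higher in that way.

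The other 5 members did not pass between genotypes after TAC. Rgs5 was at 164 and 184 CPM in floxed and 177 and 224 CPM in cKO TAC libraries (log2 0.20 ± 0.14, interval -0.11 to 0.50). Myh11 had log2 0.31 ± 0.32, Smtn -0.09 ± 0.12, Mylk -0.09 ± 0.16 and Notch3 -0.40 ± 0.23, each with overlapping libraries. Without floxed TAC 1 no member passed (Tagln adjusted p = 0.0640), without floxed TAC 2 only Tagln did, and without cKO TAC 1 only Tagln and Cnn2 did. Cspg4 missed the threshold under RLE scaling (adjusted p = 0.0524), TMM scaling (0.0555), edgeR (0.0635), a pseudocount of 0.1 (0.0517) and without floxed sham 1 (0.0690), floxed sham 2 (0.0690) or cKO TAC 1 (0.285), and Cnn1 missed it with DESeq2 (0.138) and a pseudocount of 0.1 (0.0707).

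The interaction, the TAC difference of cKO hearts less that of floxed ones, tests whether the 2 responses differed. It passed for 3 members, all negative: Cnn1 (log2 -2.49 ± 0.63, adjusted p = 0.0303), Tagln (log2 -1.50 ± 0.36, adjusted p = 0.0260) and Cnn2 (log2 -1.35 ± 0.32, adjusted p = 0.0256), where 14.1% of all genes passed, 4.93% positive and 9.18% negative. These 3 differences were smaller in cKO hearts. The members' median was log2 -0.56 against -0.13 for all genes. Pdgfrb (log2 -0.85 ± 0.33, adjusted p = 0.116) and Cspg4 (log2 -0.70 ± 0.39, adjusted p = 0.251) did not pass, and Rgs5 was at log2 -0.03 ± 0.19 with an interval from -0.47 to 0.40. Notch3, Mylk, Smtn and Myh11 had log2 -0.42, -0.32, 0.22 and 0.56 with adjusted p from 0.368 to 0.447. The count of 3 became 0 without floxed sham 1, floxed sham 2, floxed TAC 1, floxed TAC 2 or cKO sham 1, and 1 (Cnn2) without cKO TAC 1, with adjusted p between 0.0556 and 0.110 for the lost calls, while over the same 8 omissions the count of all genes ranged from 254 to 2919 beside 1851. It was 3 without cKO sham 2, 4 without cKO TAC 2 (with Pdgfrb) and 3 without the 3 libraries with atrial transcripts. Cnn1 missed the threshold with DESeq2 (adjusted p = 0.0624), limma-voom (0.0652) and a pseudocount of 0.1 (0.0521).

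Genes that work with the contractile members were read from a list of 20 other smooth muscle and cytoskeletal genes. In floxed hearts 11 rose, 3 fell and 6 did not pass (median log2 0.62), and in cKO hearts 5 rose and 15 did not pass (median 0.23). Over all genes, 42.4% passed in floxed and 2.53% in cKO hearts. Tpm2, a tropomyosin, rose in both (log2 1.54 and 1.05), while Myl6, the non-muscle and smooth muscle essential light chain, rose in floxed hearts (log2 1.58 ± 0.14) and stood at log2 0.42 ± 0.14 (adjusted p = 0.181) in cKO hearts. Acta2, the actin of smooth muscle, was at 206 and 244 CPM in floxed sham, 407 and 304 CPM in floxed TAC, 148 and 128 CPM in cKO sham and 276 and 442 CPM in cKO TAC libraries. Acta2 rose in floxed (log2 0.65 ± 0.22, adjusted p = 0.0366) and cKO hearts (log2 1.34 ± 0.22, adjusted p = 0.0148), and between genotypes after TAC it was at log2 -0.01 ± 0.22 (adjusted p = 0.973), with an interaction of 0.69 ± 0.31 (adjusted p = 0.157). The floxed call was lost under RLE (0.0745) and TMM scaling (0.0681), with edgeR (0.0684) and without floxed sham 1, floxed sham 2 or floxed TAC 1 (0.0687 to 0.232). The cKO call was lost without the 3 libraries with atrial transcripts (log2 0.90, adjusted p = 0.187), without cKO sham 1 (0.0518) or cKO sham 2 (0.101) and in the fit of 4 libraries (0.0734), and the interaction passed with DESeq2 (0.0283) and without cKO TAC 1 (0.0395).

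**Figure D3:**
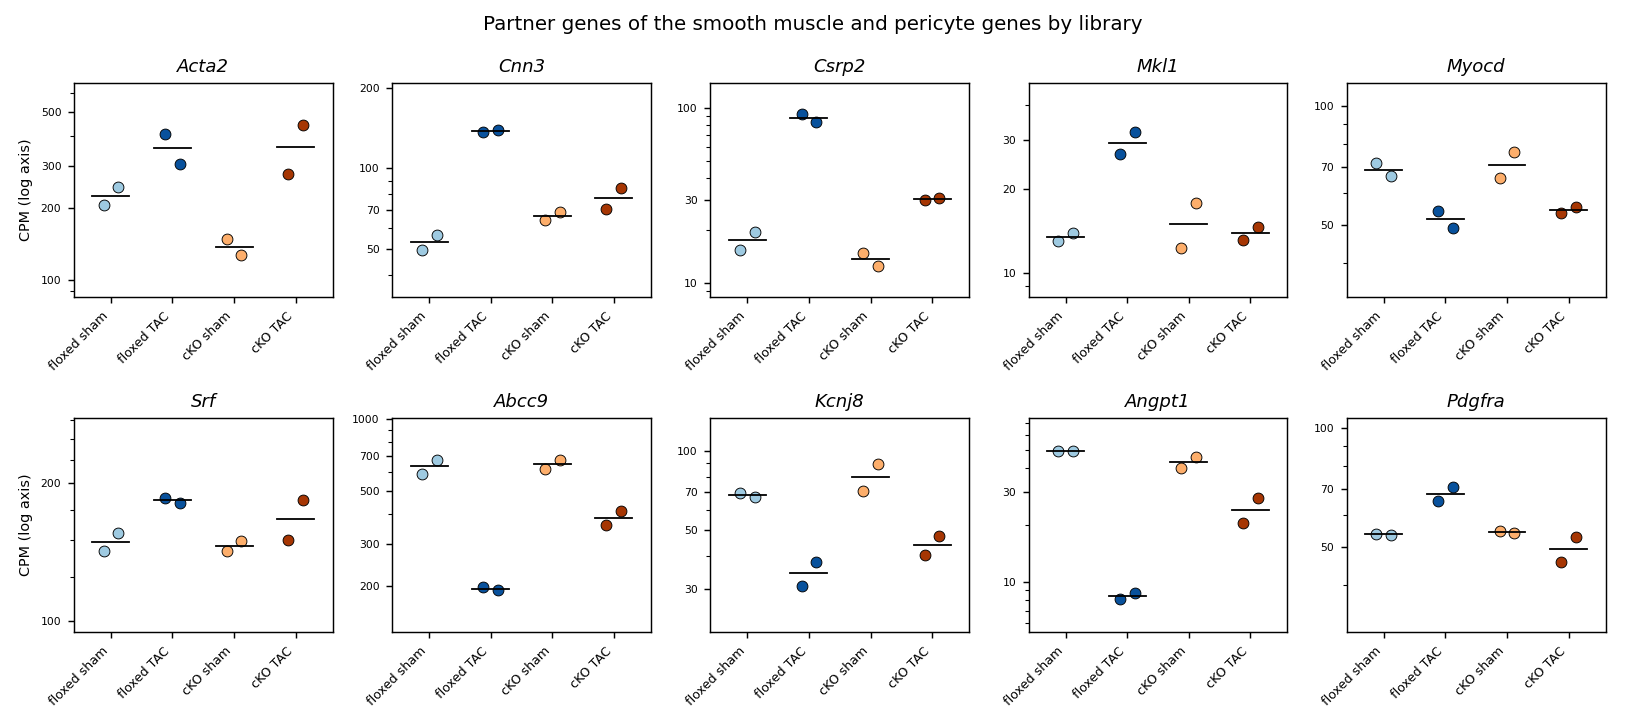
Per-library levels of 10 partner genes, plotted as CPM (log axis, scaled per panel); each point is a library and each horizontal bar a group mean. Cnn3, Csrp2 and Mkl1 were highest in both floxed TAC libraries, Acta2 was raised in TAC hearts of both genotypes, and Abcc9, Kcnj8 and Angpt1 were lower in TAC than in sham libraries of both genotypes.

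Regulators of the contractile genes were read from a list of 11 genes around myocardin and serum response factor, of which 10 were tested. In floxed hearts 5 rose and 2 fell (median log2 0.60), and in cKO hearts 1 rose (median 0.12), where 42.4% and 2.53% of all genes passed. Mkl1, a myocardin relative that moves to the nucleus when actin polymerises, went from 13.04 and 13.9 to 26.7 and 32.1 CPM in floxed hearts (log2 1.06 ± 0.19, adjusted p = 0.00193) and was at 12.3 and 17.8 against 13.1 and 14.6 CPM in cKO hearts (log2 -0.09 ± 0.19, adjusted p = 0.870). Csrp2, a LIM protein of smooth muscle, rose in floxed (log2 2.27 ± 0.16) and cKO hearts (log2 1.09 ± 0.16), and its relative Csrp1 in floxed hearts (log2 1.20 ± 0.18). Myocd, myocardin itself, which heart muscle also makes, fell in floxed hearts from 71.6 and 66.5 to 54.2 and 49.0 CPM (log2 -0.41 ± 0.12, adjusted p = 0.0216) and was at log2 -0.38 ± 0.12 (adjusted p = 0.159) in cKO hearts. The fall of Myocd was lost without floxed sham 1, floxed sham 2, floxed TAC 2 or the atrial libraries (adjusted p from 0.0568 to 0.143), while Csrp2 in cKO hearts held in 17 of 20 alternatives. Srf did not pass in either (log2 0.30 and 0.19).

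Other pericyte and mural cell genes formed a list of 14, of which 3 rose, 5 fell and 6 did not pass in floxed hearts (median log2 0.02). In cKO hearts 3 fell and 11 did not pass (median -0.23). Over all genes, 42.4% passed in floxed and 2.53% in cKO hearts. Cd248 (means 28.8 and 70.9 CPM in floxed sham and floxed TAC), Mcam (53.5 and 116) and Anpep (20.3 and 40.6) were higher in floxed TAC without overlap. Ndufa4l2 (33.0 and 33.6) overlapped. The 3 that fell in both genotypes were Abcc9 and Kcnj8, which encode the sulfonylurea receptor and the pore of a potassium channel of pericytes, and Angpt1, a ligand that steadies vessels. Kcnj8 went from 69.4 and 67.2 to 30.9 and 37.8 CPM in floxed hearts (log2 -0.98 ± 0.16, adjusted p = 0.000891) and from 70.5 and 89.3 to 40.5 and 47.7 CPM in cKO hearts (log2 -0.84 ± 0.16, adjusted p = 0.0274), with an interaction of 0.14 ± 0.22 (adjusted p = 0.705). Abcc9, which heart muscle also expresses, fell by 1.70 on the log2 scale in floxed and by 0.74 in cKO hearts, and Angpt1 fell by 2.42 and 0.82. Their interactions passed (log2 0.95 ± 0.16 and 1.60 ± 0.24, adjusted p = 0.00943 and 0.00604), the falls being smaller in cKO hearts. In floxed hearts all 3 calls held in 20 of 20 alternatives, but in cKO hearts that of Angpt1 held in 11, Kcnj8 in 14 and Abcc9 in 17. Without the 3 libraries with atrial transcripts none of the 3 passed in cKO hearts (adjusted p = 0.141, 0.187 and 0.148), nor did any in the fit of 4 libraries (0.168, 0.119 and 0.0784) or without cKO sham 2 (0.163, 0.140 and 0.0904). Kcnj8 was also lost without floxed sham 1, floxed sham 2 or cKO TAC 1 (0.0577 to 0.0590), and Angpt1 with any library left out other than cKO TAC 2 (0.0689 to 0.163). The Abcc9 interaction was lost without the atrial libraries (0.0628).

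Ligands of the mural receptors were read from the PDGF and Notch lists. Pdgfb, the endothelial ligand of Pdgfrb, was at 52.8 and 52.9 CPM in floxed sham and 64.7 and 68.2 CPM in floxed TAC libraries (log2 0.33 ± 0.27, adjusted p = 0.364) and at log2 0.07 ± 0.27 (adjusted p = 0.932) in cKO hearts. Pdgfa did not pass (log2 0.34 and -0.25). Of the 5 PDGF genes 2 rose in floxed hearts, where 42.4% of all genes passed. They were Pdgfc, a ligand of the fibroblast receptor (log2 2.06 ± 0.30, adjusted p = 0.000511), and that receptor, Pdgfra (log2 0.33 ± 0.12, adjusted p = 0.0470). In cKO hearts, where 2.53% of all genes passed, 0 of 5 did by limma. An unadjusted p under 0.05 was found there for 1 of the 5 and for 2142 of all 13120 genes. The Pdgfra call held in 9 of 20 alternatives. It was lost, among others, under RLE scaling (log2 0.19, adjusted p = 0.215), TMM scaling (log2 0.20, 0.182), edgeR (log2 0.20, 0.178), DESeq2 (log2 0.19, 0.352) and with any of 6 libraries left out (all 4 floxed and both cKO sham libraries, adjusted p from 0.0560 to 0.199). Of 14 Notch pathway genes tested 5 rose and 1 fell in floxed hearts (median log2 0.27), a share near the 42.4% of all genes. Among those that rose were the ligand Jag1 (log2 0.58 ± 0.17, adjusted p = 0.0215), the receptor Notch2 (log2 1.01), the glycosyltransferase Lfng (log2 1.15) and the effector Heyl (log2 0.89 ± 0.22, adjusted p = 0.00828). The Jag1 call was lost with DESeq2 (adjusted p = 0.0708), without the atrial libraries (0.0610) and without any 1 of the 4 floxed libraries (0.0572 to 0.121), and that of Heyl without floxed sham 1 (0.0848). None of the 14 passed in cKO hearts by limma (median -0.15), where 2.53% of all genes did. An unadjusted p under 0.05 was found there for 1 of the 14 and for 2142 of all 13120 genes.

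Relatives of Rgs5 and Cspg4 were read from a list of each family. Of 9 other RGS genes tested 4 rose and 1 fell in floxed hearts, where 42.4% of all genes passed. In cKO hearts 0 passed by limma, where 2.53% of all genes did. There 2 of the 9 had an unadjusted p under 0.05, as did 2142 of all 13120 genes. Rgs10 (log2 1.93 ± 0.24) and Rgs19 (log2 1.39 ± 0.21), which are found in immune cells, rose, while Rgs2, which restrains signalling through Gq, fell by 1.18 on the log2 scale. The chondroitin sulfate proteoglycan Vcan, versican, rose from 15.6 and 19.4 to 141 and 137 CPM in floxed hearts (log2 2.93 ± 0.25) and from 22.5 and 17.8 to 36.9 and 68.1 CPM in cKO hearts (log2 1.28 ± 0.25, adjusted p = 0.0322). The Vcan call in cKO hearts held in 10 of 20 alternatives. It was lost without the 3 libraries with atrial transcripts (log2 0.69, adjusted p = 0.178), with limma-voom (0.0715), in the fit of 4 libraries (0.151) and with any library left out other than cKO TAC 1 (0.0548 to 0.155; log2 0.85 without cKO TAC 2). Acan, listed at no more than 2.76 CPM in any library, rose in floxed hearts (log2 1.49 ± 0.31).

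**Figure D4:**
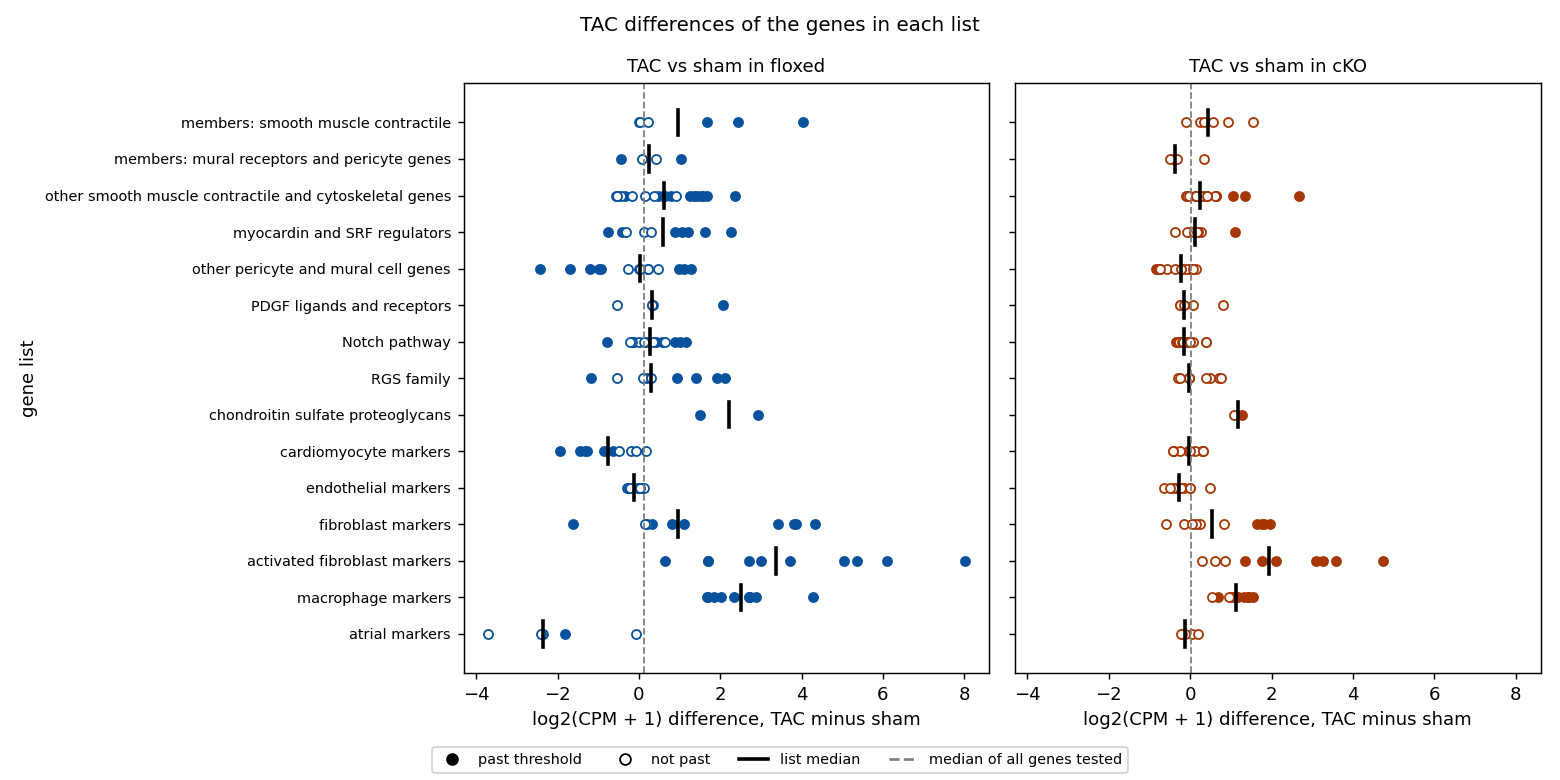
TAC differences on the log2(CPM + 1) scale for every gene of each list, floxed hearts on the left and cKO hearts on the right, with filled points past the threshold, a black bar at the list median and a dashed line at the median of all genes tested. Activated fibroblast and macrophage markers lay to the right of that line in both genotypes, and the called contractile members, at log2 1.69 to 4.04, lay within the range of the activated fibroblast markers in floxed hearts.

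Markers of other cells changed in the comparisons in which Cnn1, Tagln and Cnn2 passed. They also changed in cKO hearts after TAC, where these genes did not pass by limma. The 10 activated fibroblast markers, of which Acta2 is also a smooth muscle gene, summed to 327 and 368 CPM in floxed sham, 3513 and 3673 CPM in floxed TAC, 283 and 262 CPM in cKO sham and 915 and 1657 CPM in cKO TAC libraries. They were highest in floxed TAC and next in cKO TAC hearts. They were also higher in cKO TAC 2 than in cKO TAC 1, as were 9 of the 10 members, Tagln among them, and 63% of all genes tested. All 10 rose in floxed hearts and 7 in cKO hearts, where 27.9% and 2.09% of all genes rose. Postn, the most used marker of such fibroblasts, rose by log2 5.04 and 3.59. The 10 general fibroblast markers summed to 3477 to 3482, 11311 to 14910, 3437 to 3955 and 4500 to 6512 CPM in the same 4 groups. Of these, 7 rose and 1 fell in floxed hearts, and 4 rose and 0 fell in cKO hearts. The 10 macrophage markers listed, of 11, summed to 281 to 301, 1209 to 1211, 243 to 285 and 474 to 647 CPM. All 10 rose in floxed hearts and 8 in cKO hearts. No gene of these 3 lists was at 0 in any library, and their part in the differences of Cnn1, Tagln, Cnn2 and Cspg4 was not tested. In whole tissue fewer cells of a type and less RNA per cell cannot be told apart.

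Endothelial markers, which share vessels with mural cells, did not pass: 0 of 10 in floxed hearts and 0 of 10 in cKO hearts by limma, where 42.4% and 2.53% of all genes did. Of the 10 markers, 0 and 4 had an unadjusted p under 0.05, where 6604 and 2142 of all 13120 genes did. They summed to 1747 to 1759, 1582 to 1759, 1828 to 2043 and 1390 to 1979 CPM in the 4 groups in the order used above, with 1390 CPM in cKO TAC 1, the library with the lowest Pdgfrb and Notch3. The 10 cardiomyocyte markers summed to 71168 to 83319 CPM in floxed sham and 38285 to 39381 CPM in floxed TAC libraries and to 61575 to 68075 and 55139 to 74540 CPM in cKO sham and cKO TAC libraries. CPM is a share of a library, so abundant transcripts bear on the CPM of all others. Under RLE scaling the same 5 members were called in floxed hearts, with 5580 of all genes in place of 5562. Between TAC groups 3 members were called in place of 4, Cspg4 missing the threshold (adjusted p = 0.0524 by limma), with 3173 of all genes in place of 3263. Of the atrial markers 5 of 6 were listed, and they summed to 28.8 to 52.1 CPM in 5 libraries and 175 to 339 CPM in the 3 with Myl7.

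The genes whose levels tracked Myh11 and Rgs5 most closely were sought by Pearson correlation of log2(CPM + 1) over the 8 libraries among 10294 genes with a mean of at least 5 CPM. Those nearest to Myh11 were Zc3h13 (r = 0.945), Cdk11b (0.944), Rbm25 (0.937), Dst (0.932) and Dync1h1 (0.928), none of them a contractile member. Those nearest to Rgs5 were Cdkn1b (r = 0.987), Atp1b2 (0.983), Impact (0.975), Tap2 (0.974) and Cd300lg (0.973). Cd300lg, an endothelial surface protein, was at 165 and 169 CPM in floxed sham, 111 and 126 CPM in floxed TAC, 206 and 210 CPM in cKO sham and 121 and 173 CPM in cKO TAC libraries. The 8 points fall into 4 groups that share treatment and genotype, so each r is a description and not a test.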

How the data were processed

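Poly(A) RNA of left ventricles was sequenced as stranded libraries (50 bp paired reads, HiSeq 2500) per the labels. The submitters' processing notes name Bowtie2 2.2.6, HTSeq, DESeq2 and mm10, without their roles; neither the annotation nor the counting settings are stated there. The deposited values are CPM by the authors, 1 column per library. Dividing by the value of 1 read gave whole numbers for 100% of values (tolerance 0.02 reads), which allowed count tools to be run; on those reads edgeR called 5559 genes for TAC against sham in floxed hearts, against 5562 by limma on CPM.

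Groups were compared with limma on log2(CPM + 1) with a trended variance (limma 3.58.1, R 4.3.3), 1 coefficient per group, 8 libraries and Benjamini-Hochberg adjustment over 13120 genes, after removing 319 low genes. The threshold was 0.05. Alternatives were pseudocounts of 0.1 and 5, no filter, a filter at 5 CPM, RLE and TMM scaling, edgeR 4.0.16, DESeq2 1.42.0, limma-voom, fits of 4 libraries, a replicate block and each library left out; leaving out 3 libraries with atrial transcripts was added after seeing the data. All 10 members are named. From each of the 13 other lists up to 3 genes with the smallest adjusted p in floxed hearts were named, plus 9 partner genes. Cd300lg, Gsn, Ppp1r12b, Ldb3, Fhl2, Cd248, Mcam, Anpep and Ndufa4l2 were chosen after their values were seen. The members and lists were chosen with earlier results of these data known. Intervals are 95%.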

Additional observations from a re-analysis of the deposited data

Results flagged for a closer look

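The genes here are those named in the report or eligible for it whose TAC differences in cKO and floxed hearts differed by the interaction test of limma. Values are the cKO difference minus the floxed difference on the log2(CPM + 1) scale. Of the 20 other smooth muscle genes 3 had a positive and 5 a negative interaction past the threshold (median 0.07), and of 10 regulators 1 and 3. Over all genes the shares were 4.93% positive and 9.18% negative. Among members and named genes it was negative for Cnn1 (-2.49), Tagln (-1.50), Cnn2 (-1.35), Csrp2 (-1.17), Myl6 (-1.16), Mkl1 (-1.15), Cnn3 (-1.14) and Csrp1 (-1.04). Positive ones, chosen here after their values were seen, included Ppp1r12b (0.71), Ldb3 (0.63) and the regulator Fhl2 (0.76). From the list of other mural cell genes, Angpt1 (1.60) and Abcc9 (0.95), which heart muscle also expresses, had positive values, since they fell less in cKO hearts. Kcnj8 of the same list was at 0.14 and did not pass. Within the 2 gene families related to Rgs5 and Cspg4 it was positive for Rgs2 (1.15) and negative for Rgs10 (-1.22) and Vcan (-1.64). The call of Rgs10 held in 7 of 19 alternatives and was lost, among others, under RLE and TMM scaling, with edgeR, limma-voom, a pseudocount of 0.1 and any library left out other than cKO sham 2 and cKO TAC 2 (adjusted p from 0.0530 to 0.151). Of the same 19, the interactions held in 12 for Csrp1 and Mkl1 and in 15 for Vcan.

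Of 10 fibroblast markers 4 had a negative and 1 a positive interaction past the threshold, beside 9.18% and 4.93% of all genes. The positive one was Gsn (1.02). Of 10 activated fibroblast markers 7 were negative and 0 positive. The negative ones named were Lox, a collagen crosslinking enzyme (-3.03), the collagens Col1a2 (-2.06), Col3a1 (-2.04) and Col8a1 (-1.62), Mfap5 (-1.78) and Postn (-1.45). The macrophage genes Ccr2 (-2.74) and Cd68 (-1.32) were negative as well. These calls held in 14 of 19 alternatives for Postn and in 15 for Lox and Cd68. They held in 18 for Col1a2 and Col3a1 and in all 19 for Col8a1, Mfap5 and Ccr2. The cardiomyocyte genes Myl2 (1.54), Pln (0.91) and Tnni3 (0.85) and the atrial list gene Stard10 (1.59) were positive, with calls that held in 12 of 19 alternatives for Pln and Tnni3 and in 15 for Stard10. Adjusted p-values over all genes ranged from 0.00555 (Mfap5) to 0.0466 (Ppp1r12b) by limma.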

How the results depend on the processing

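Counts of members past the threshold, with each library left out in turn, ranged from 3 to 5 (TAC against sham in floxed hearts, 5 with all libraries), 0 to 2 (the same in cKO hearts, 0), 0 to 5 (cKO against floxed in TAC hearts, 4) and 0 to 4 (interaction, 3), and were 0 throughout for cKO against floxed in sham hearts. A lone library left in a group was taken to vary like the other groups. DESeq2 called 2 members in cKO hearts, with 691 of all genes called in place of 332 by limma. A pseudocount of 0.1 left 2 members for cKO against floxed in TAC hearts, with 2934 of all genes in place of 3263. The cause was not tested. Over all alternatives 892 of 990 member values kept direction and side of the threshold, 44 lost a call, 13 gained one, 41 changed sign while past the threshold neither way, and 0 reversed a call.

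Deviations of same-numbered libraries correlated between -0.105 and 0.0812, which cannot show that replicate numbers were unpaired in handling. The libraries with atrial transcripts (floxed sham 2, cKO sham 2 and cKO TAC 2) were all replicate 2. Pdgfrb, Notch3 and Cspg4 were higher in replicate 2 than in replicate 1 in every group. Whether libraries of 1 number shared handling is not stated and was not tested. With the replicate block 6 members were called in floxed hearts, 0 in cKO hearts, 0 between sham groups, 6 between TAC groups and 4 for the interaction. Over all genes the block gave 5573, 309, 8, 3289 and 1873 calls in that order, beside 5562, 332, 7, 3263 and 1851 without it. The added members were Pdgfrb (adjusted p = 0.0287, 0.0108 and 0.0217 by limma) and, between TAC groups, Notch3 (0.0479).

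Counts over all genes moved as well. In cKO hearts 332 became 691 with DESeq2, 129 with limma-voom, 45 with only 4 libraries, 53 without the 3 libraries with atrial transcripts and 71 to 615 with 1 library left out. Between sham groups 7 became 3 with a pseudocount of 5, 52 with DESeq2, 1 with limma-voom and 1 to 15 with 1 library left out. Between TAC groups 3263 became 1400 to 3622, for the interaction 1851 became 254 to 2919, and in floxed hearts 5562 became 3618 without floxed sham 1. Depth limits the level of Cnn1 in sham hearts, where 11 reads were the fewest.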
